A study of Mus musculus with 8 samples.

Results

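The comparison described here is EZH1/2 inhibition with DS3201 in immortalised mouse embryonic fibroblasts that carried a control shRNA. It rests on 4 of the 8 libraries of the series, 2 with DS3201 against 2 without, with 1 library of each group in each of 2 sets named by the leading number of the count column, 20 and 28. These numbers are in no sample label, so that they mark batches is an assumption on which the number of calls rests, 982 higher and 108 lower with the set as a block against 109 and 0 without it. The cells are labelled 6KO, a knockout of Setdb1, Suv39h1/2, Ehmt1, Ehmt2 and Ring1b, and both groups share this genotype, so the control is itself a cell lacking H3K9 methyltransferases and one of the paired ubiquitin ligases of Polycomb repressive complex 1 (PRC1). The group called control here received the control shRNA by lentivirus, and the group called DS3201 received the same shRNA and 1 uM of the inhibitor for 7 days. The other 4 libraries carried an shRNA against Ring1a, without or with the inhibitor. All libraries come from 1 cell line, and whether it is 1 clone is not given in the sources used here.

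Polycomb repressive complex 2 (PRC2) places methyl groups on lysine 27 of histone H3 through its catalytic subunit EZH1 or EZH2, with EED and SUZ12 as core partners. The trimethylated mark is bound by PRC1 complexes that carry a CBX subunit, and genes under both complexes, many of them regulators of embryonic development, are held silent in cells that do not use them. In fibroblasts the mark typically covers lineage genes of other tissues, and blocking the catalytic site removes the mark over successive cell divisions without removing the complex. DS3201, also known as valemetostat, inhibits both EZH1 and EZH2.

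Total counts were 20554685 and 15345960 in the control libraries and 16908517 and 12738585 in the DS3201 libraries, in set 20 and set 28 in that order, as in all pairs of values below. Levels are CPM (counts scaled to library size) after TMM scaling, and 3 counts correspond to 0.143 to 0.265 CPM in these 4 libraries. The 2 DS3201 libraries were less alike than the 2 control libraries, with a correlation over genes of 0.912 against 0.947. Repeat subfamilies took 14.6% of counts in the DS3201 library of set 28 against 8.65% to 10.4% in the other 3. Ribosomal protein genes took 2.71% to 3.36% of counts in the 4 libraries, with no order by treatment. RNA came from whole cultures, so a change in the share of cells that make a transcript and a change of RNA per cell cannot be told apart. No label says that the 2 sets were separate cultures, so the p-values reflect the spread among the sequenced libraries alone, and this spread may be technical.

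DS3201 raised many more genes than it lowered, and the raised genes were mostly silent or nearly silent in the control. Of 14393 genes tested, 982 were higher (6.82%) and 108 were lower (0.75%) at an adjusted p under 0.05, from edgeR's quasi-likelihood F test with the set as block. The raised genes had a median level of 0.101 CPM in the control against 4.11 CPM with the inhibitor. Their median log2 fold change was 4.91, or 4.05 when genes with 0 control counts were placed at their lower bound, and 824 of the 982 exceeded 4-fold on either scale. The lowered genes were of ordinary abundance, at a median of 56.2 CPM in the control against 28.3 CPM with the inhibitor, and their median log2 fold change was -0.99, with 7 beyond 4-fold. Over all genes tested the median was 0.04.

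The libraries of the 2 groups did not overlap for 941 of the raised and 83 of the lowered genes, against 5143 of all 14393 genes. The sign was the same in both sets for 979 of the raised and 108 of the lowered genes, against 8938 of all. Both counts follow in part from the selection, as the genes were called from these same libraries, and they are no separate support for the calls. For the 269 raised genes with 0 control counts, any count in both DS3201 libraries separates the groups. The number of calls depended strongly on the fit. Without the block 109 genes were higher and 0 lower, with 325 lower at an unadjusted p under 0.05, and DESeq2 with the block called 1248 higher and 414 lower. Without the control library of set 20 or set 28 the higher calls numbered 167 and 430 and the lower calls 3 and 4. Without the DS3201 library of set 20 they numbered 2748 and 2670, and without that of set 28 they numbered 642 and 256. Leaving out a library of the Ring1a shRNA cells with DS3201, which enters through the shared estimate of spread, gave 274 and 331 higher and 23 and 25 lower, and leaving out one of those without DS3201 gave 69 and 68 lower. In these leave-out fits the remaining library of a group is assumed to vary like the other groups.

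The share of tested genes called higher was largest at low control levels. Of 408 tested genes with 0 counts in both control libraries, 269 were higher (65.9%), and of 1858 genes above 0 and under 1 CPM, 476 were higher (25.6%). None of these 2266 genes was lower by this test. Such genes passed the filter on low counts only where another group had enough counts, so these shares describe the tested genes and not all silent genes, and such a gene had little room to be lower. At 1 to 10 CPM 148 of 2969 genes were higher and 9 lower, and at 10 to 100 CPM 87 of 6951 were higher and 65 lower. Among the 2207 genes at 100 CPM and more, 2 were higher and 34 were lower. These 2, named after their values were seen, were Ildr2, at 63.7 and 182 CPM in the control against 173 and 426 CPM with DS3201, and the PRC1 gene Bmi1.

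**Figure D1:**
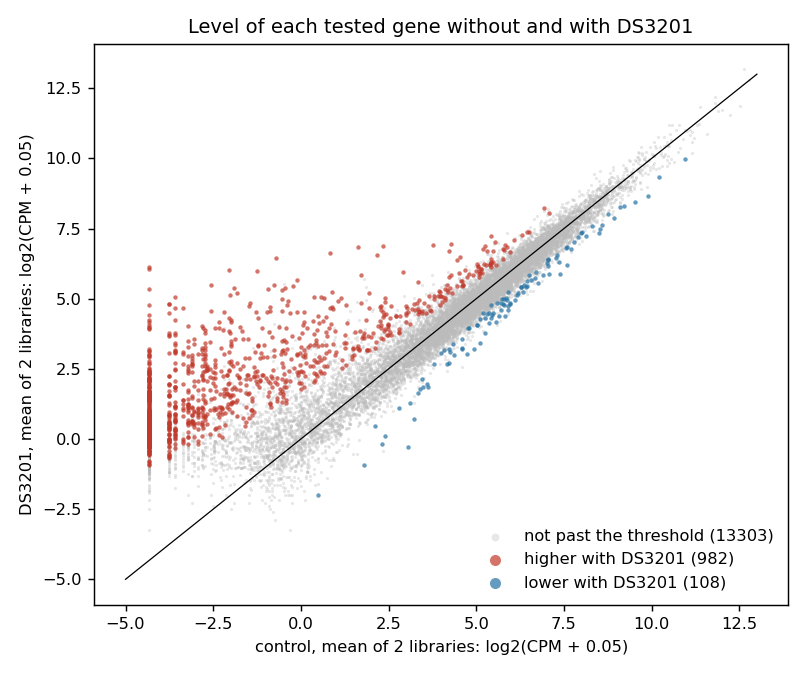
Mean level of each tested gene in the 2 control libraries (x axis) and the 2 DS3201 libraries (y axis), both as log2(CPM + 0.05), with the diagonal marking equal levels. Genes higher (982, red) spread upwards from the left edge, where the control has 0 counts, while genes lower (108, blue) lie close under the diagonal at higher levels.

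**Figure D2:**
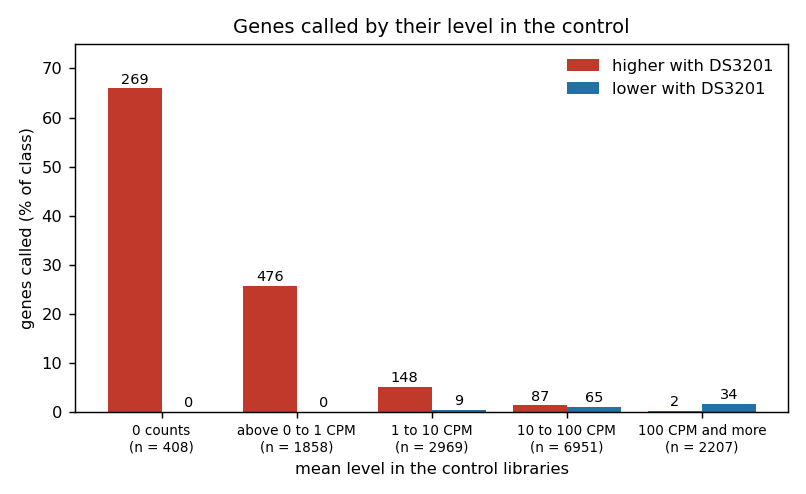
Share of genes called higher (red) and lower (blue) with DS3201, in percent of the tested genes of each class of mean control level, with the number called above each bar. The share called higher falls from 65.9% of genes with 0 control counts to 2 of 2207 genes at 100 CPM and more, where 34 are lower.

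Transcripts of the inhibited complex were present in all 4 libraries. None of the 12 tested PRC2 genes passed the edgeR test, with 1 higher and 1 lower at an unadjusted p under 0.05, and DESeq2 called 1 lower. Ezh1 was at 21.1 and 14.7 CPM in the control against 21.8 and 13 CPM with DS3201, and Eed was at 38.1 and 33.6 CPM against 34.2 and 38.5 CPM. Ezh2 was at 59.6 and 89.9 CPM against 80.9 and 156 CPM, higher in each set by a log2 fold change of 0.63 ± 0.19 (SE, n = 2 libraries a group) that missed the threshold (adjusted p = 0.0955). Among 23 PRC1 genes, 3 rose: Bmi1, Rybp and Phc1, which encode a ring-finger partner, a subunit of the variant complexes and a polyhomeotic scaffold. Rybp went from 68.3 and 65.7 to 119 and 153 CPM (log2 fold change 1.02 ± 0.17, adjusted p = 0.0187). Without either control library, or without the block, 0 of the 23 passed, while without the DS3201 library of set 20 the PRC1 list had 7 higher and 5 lower and the PRC2 list 3 higher and 2 lower. Of the opposing enzymes, the H3K27 demethylases and the trithorax, acetyltransferase and remodelling genes, 0 of 14 passed in edgeR and in DESeq2, with 1 at an unadjusted p under 0.05. Of 9 enzymes of DNA methylation 2 rose, Tet1, which oxidises methylcytosine, from 0.285 and 0.201 to 6.40 and 2.74 CPM (log2 fold change 4.16 ± 0.60, adjusted p = 0.0111), and the methyltransferase gene Dnmt3b.

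Transcripts of the 6 genes named in the genotype, and of Ring1, did not pass in this comparison. Setdb1 was at 9.46 and 5.91 CPM in the control against 8.61 and 4.33 CPM with DS3201, and Rnf2, the gene for Ring1b, at 28.9 and 50.5 against 31.4 and 89 CPM. Which bases were edited is not stated, and these RNA levels are therefore no check of the knockouts.

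Robo1, one of the 12 raised genes of highest fold change, encodes a receptor for SLIT proteins that steers growing axons (chr16:72027518-73047491; positions here are RefSeq's for GRCm38). It had 0 counts in both control libraries and 24.8 and 107 CPM with DS3201, at least 683-fold higher with 3 counts over the group as the floor (adjusted p = 0.000446). Nts, which encodes the neuropeptide neurotensin, also had 0 counts in the control, but its 2 DS3201 libraries were far apart, at 138 CPM in set 20 and 0.972 CPM in set 28 (at least 1014-fold higher over the group, adjusted p = 0.000562). Dcx encodes doublecortin, a microtubule protein of migrating neurons, and had 28.5 and 7.42 CPM from 0, at least 243-fold higher (adjusted p = 0.00503). Tenm3, a teneurin that matches synaptic partners, reached 4.13 and 29.3 CPM from 0, at least 167-fold higher (adjusted p = 0.00121). As the control had 0 counts in each of these genes, any count with DS3201 lies above it. With the inhibitor Robo1 and Tenm3 were higher in set 28, while Nts and Dcx were higher in set 20.

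Kctd12, whose product attaches to GABA-B receptors, had 28.9 and 51.4 CPM with DS3201, and Cyfip2, a part of the actin-regulating WAVE complex, had 31.1 and 23.7 CPM. Prkg1, the cyclic GMP-dependent protein kinase of smooth muscle and neurons, had 9.63 and 33.1 CPM, at least 225-fold above its 0 control counts (adjusted p = 0.00104). Lonrf3, a ring-finger gene on the X chromosome, had 6.97 and 11.3 CPM (at least 104-fold higher, adjusted p = 0.0127). Rgs2, which shortens signalling of Gq proteins, had 9.74 and 7.95 CPM. Counts in the control were 0 in both libraries for all 12 genes of highest fold: these, Nts, Robo1, Dcx, Tenm3, Heph, Jakmip2 and Ogfrl1. Their fold changes therefore have only a lower bound.

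Apart from Robo1, several of the genes with the smallest p had replicates close to each other. Ms4a4d, a 4-pass membrane protein gene (chr19:11536794-11558466), was already expressed in the control, at 4.66 and 4.16 CPM, and reached 107 and 82.6 CPM (log2 fold change 4.42 ± 0.21, adjusted p = 0.000446). Srgap1, which encodes a GTPase-activating protein that acts below ROBO receptors, went from 0.428 and 0.336 to 18.9 and 20.3 CPM (log2 fold change 5.65 ± 0.31, adjusted p = 0.000562). Myo1d, an unconventional myosin gene, went from 0.095 and 0.336 to 38.5 and 44.3 CPM (log2 fold change 7.65 ± 0.42, adjusted p = 0.000562). All 3 were also called in each of the 8 fits that left out 1 library, as were 148 of the 982 raised genes in all.

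**Figure D3:**
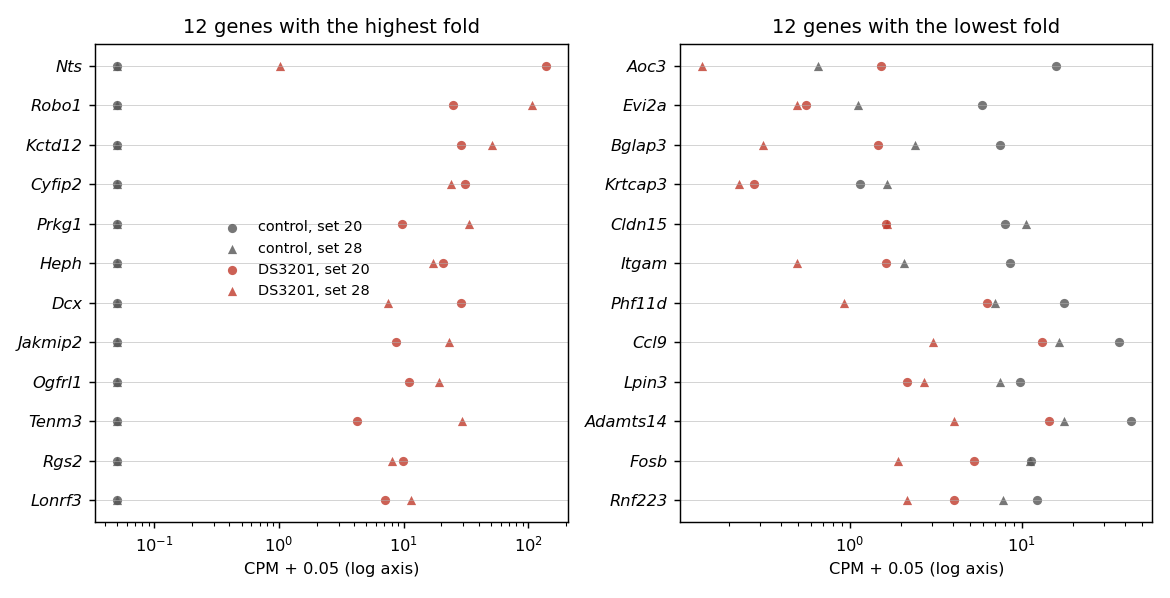
CPM + 0.05 on a log axis for called genes at both ends of the log2 fold change, 12 highest and 12 lowest, with 1 point per library (grey control, red DS3201, circles set 20, triangles set 28). On the left every control point sits at 0 counts, drawn at 0.05. On the right both inhibited libraries lie below the control library of their own set, and for several genes the sets differ more than the treatments.

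Promoter sequence differed widely among the genes that moved. The following RefSeq promoters, on the strand of the gene in GRCm38 (mm10), give the 250 bases before the annotated start for raised genes of highest fold or smallest p and for the lowered gene with the smallest p, with CG dinucleotides in capitals. They are shown because they span the range of CG content among the named genes.
Kctd12: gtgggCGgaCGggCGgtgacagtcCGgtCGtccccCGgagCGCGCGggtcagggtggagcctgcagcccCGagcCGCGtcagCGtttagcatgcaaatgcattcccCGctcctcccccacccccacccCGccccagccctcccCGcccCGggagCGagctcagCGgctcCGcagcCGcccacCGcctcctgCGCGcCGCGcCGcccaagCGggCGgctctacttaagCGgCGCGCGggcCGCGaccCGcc
Rgs2: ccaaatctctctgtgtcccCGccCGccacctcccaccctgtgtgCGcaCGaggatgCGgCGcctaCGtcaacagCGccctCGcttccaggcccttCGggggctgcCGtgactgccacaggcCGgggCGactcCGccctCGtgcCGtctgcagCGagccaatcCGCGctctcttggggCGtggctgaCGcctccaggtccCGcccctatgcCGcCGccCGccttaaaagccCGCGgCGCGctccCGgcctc
Zscan4b: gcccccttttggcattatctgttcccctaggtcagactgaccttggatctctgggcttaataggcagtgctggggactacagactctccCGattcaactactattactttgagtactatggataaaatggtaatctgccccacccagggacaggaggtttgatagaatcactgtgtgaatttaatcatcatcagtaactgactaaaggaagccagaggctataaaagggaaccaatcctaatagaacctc
Usp17ld: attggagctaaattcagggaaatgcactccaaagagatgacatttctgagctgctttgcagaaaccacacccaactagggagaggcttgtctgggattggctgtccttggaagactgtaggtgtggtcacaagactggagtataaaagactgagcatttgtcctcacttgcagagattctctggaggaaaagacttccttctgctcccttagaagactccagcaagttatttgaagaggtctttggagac
Cnn2: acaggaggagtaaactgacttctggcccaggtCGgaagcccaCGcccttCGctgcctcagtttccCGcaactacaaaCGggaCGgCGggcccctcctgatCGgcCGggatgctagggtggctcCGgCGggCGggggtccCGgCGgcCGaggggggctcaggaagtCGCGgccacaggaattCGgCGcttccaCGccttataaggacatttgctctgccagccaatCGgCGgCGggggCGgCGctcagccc
These windows lie at chr14:102982638-102982887 (minus strand), chr1:144004150-144004399 (minus), chr7:10905051-10905300 (minus), chr7:103252506-103252755 (minus) and chr10:79988350-79988599 (plus).

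The Kctd12 and Rgs2 windows hold 36 and 30 CG dinucleotides, and those of Zscan4b and Usp17ld, genes of the 2-cell embryo, hold 1 and 0. Cnn2, which fell, holds 25. The motif searched was CG, which reads the same on both strands. Across 32851 RefSeq windows of this length the median was 6, 37.8% held 10 or more and 29.0% held 2 or fewer. Of the 17 distinct raised genes named for fold or p, 13 had a window, with 0 to 36 CG and a median of 9. Of the 18 lowered ones 14 had a window, with 2 to 35 and a median of 5.5. Chromosome 18 was left out of this lookup of named genes, so Jakmip2, which lies there, could have no window. A window was found for 736 of the 982 raised genes (74.9%), which is too few for a check of base composition over the whole set.

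Gene lists by function are described below by the number of tested members called, beside 6.82% higher and 0.75% lower over all genes tested. A gene may stand in more than 1 list, and 189 of the 982 raised genes and 23 of the 108 lowered genes stand in any. Many of the raised members were under 1 CPM in the control, a range in which 745 of 2266 tested genes were raised.

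**Figure D4:**
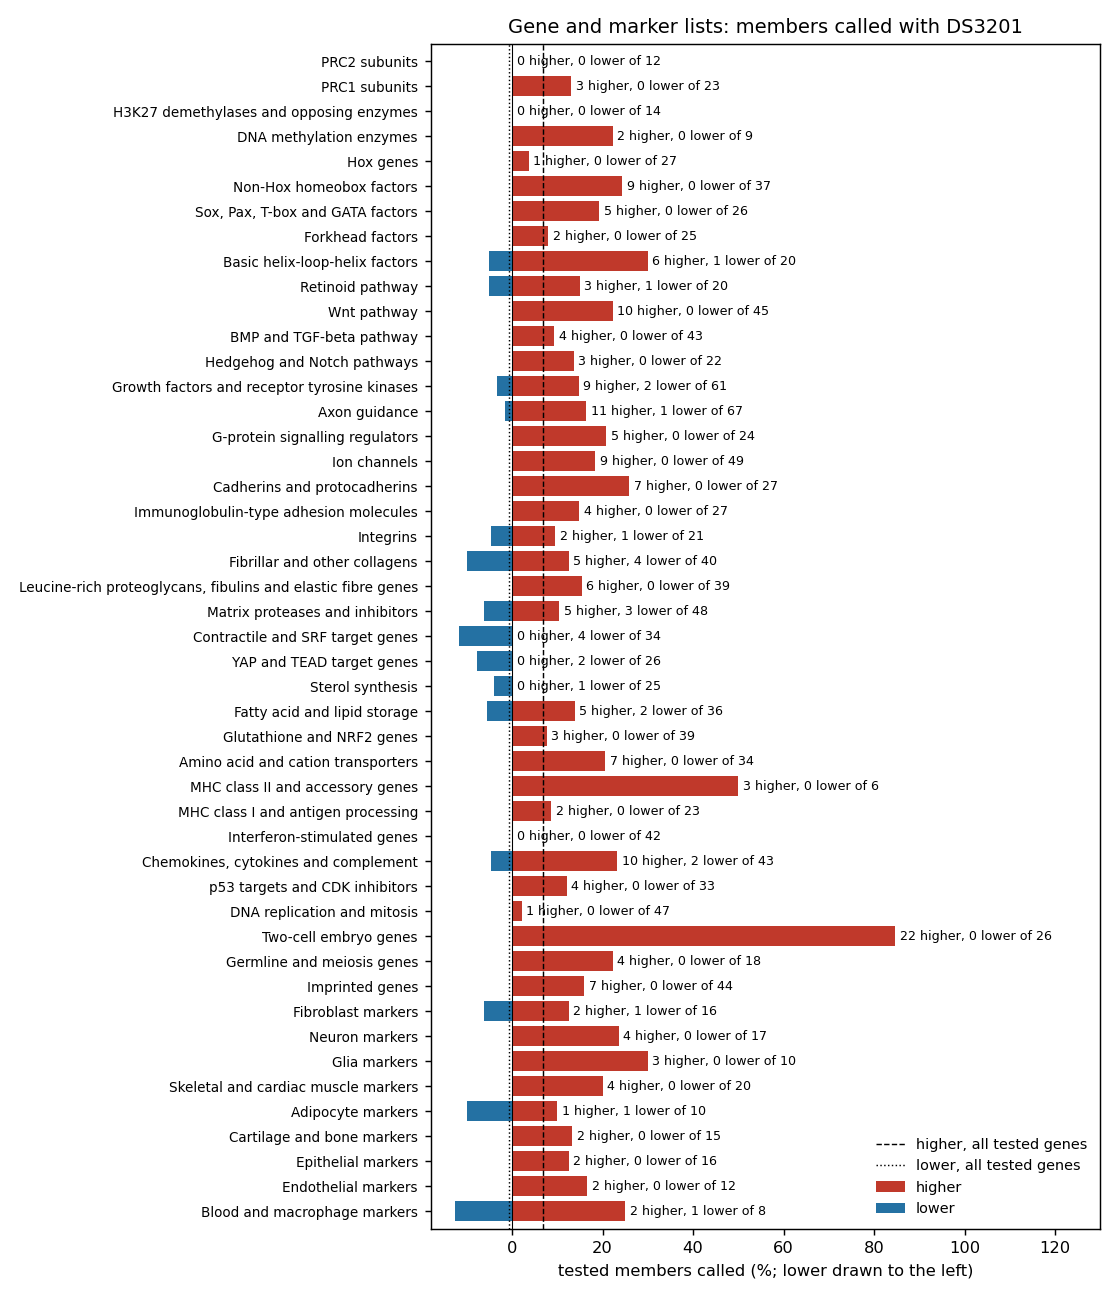
Share of tested members called higher (red, to the right) and lower (blue, to the left) with DS3201 in each gene or marker list, with the counts beside each bar. The dashed and dotted lines mark 6.82% higher and 0.75% lower over all genes tested. The list of 2-cell embryo genes reaches 22 of 26, while PRC2 subunits, opposing enzymes and interferon-stimulated genes have no member called.

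Among 37 tested homeobox genes outside the Hox clusters, 9 rose, 0 fell and 28 did not pass, and all 9 were among the 16 members under 1 CPM in the control. En2, which patterns the midbrain and hindbrain, had 0 counts in the control and 2.49 and 5.74 CPM with DS3201 (at least 45.1-fold, adjusted p = 0.00911). Lmx1a, a roof plate and dopamine neuron factor, had 1.64 and 1.85 CPM from 0 (at least 20.7-fold higher, adjusted p = 0.0235). Dlx4, Lbx1, Pou3f3, Pou4f1, Alx4, Irx3 and Six2 were the remaining 7. Of 27 tested Hox genes, 1 rose and 26 did not pass, and DESeq2 called 3 higher and 0 lower. Their median log2 fold change was 0.42 against 0.04 over all genes, with 15 positive and 4 negative in both sets. At an unadjusted p under 0.05 in edgeR 8 were higher and 1 lower, against 2370 and 1115 of all 14393 genes tested. Without the block no Hox gene was called.

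Sox, Pax, T-box and GATA genes had 5 of 26 higher, among them Sox12, from 0.333 and 1.68 to 25 and 11.3 CPM (log2 fold change 4.28 ± 0.70, adjusted p = 0.0171), and Sox9, a cartilage factor, from 1.62 and 0.873 to 7.53 and 6.36 CPM. Basic helix-loop-helix genes had 6 of 20 higher and 1 lower. Ebf2, a factor of brown fat and neuronal precursors, rose from 0 counts and reached 1.64 and 3.36 CPM (at least 27.7-fold higher, adjusted p = 0.0125), and Hey1 and Hes1, both targets of Notch signalling, rose as well. Forkhead genes had 2 of 25 higher. Without the control library of set 20 these lists had 2 homeobox calls and 0 in the others, and without that of set 28 they had 4, 2 (Sox to GATA), 2 (helix-loop-helix) and 1 (forkhead).

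Axon guidance genes had 11 of 67 tested members higher and 1 lower, with a median log2 fold change of 0.61 against 0.04 over all genes. Of 3 tested ROBO receptor genes, Robo1 and Robo2 rose and Robo3 did not pass. Robo2 lies beside Robo1 on chromosome 16 (chr16:73891976-75447443) and went from 1 count in the 2 control libraries to 16.3 and 28 CPM, 750 times the control level (95% counting interval 134 to 29687, adjusted p = 0.000804). The ligand gene Slit3 went from 1.95 and 0.537 to 14.5 and 5.56 CPM (log2 fold change 3.03 ± 0.33, adjusted p = 0.00413). Slit2 did not pass, at 55.7 and 86 CPM in the control against 67.2 and 144 CPM with DS3201.

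Semaphorin genes moved in both directions. Sema6a, a transmembrane semaphorin, had 2.89 and 3.97 CPM from 0 counts (at least 39.7-fold higher, adjusted p = 0.00757), and Sema6d and Sema4d also rose. The plexin gene Plxna4, which encodes a semaphorin receptor, went from 10.5 and 3.69 to 31.1 and 11 CPM (log2 fold change 1.57 ± 0.29, adjusted p = 0.0249). Sema3d, a secreted semaphorin, fell from 102 and 22.3 to 46.4 and 9.80 CPM (log2 fold change -1.16 ± 0.16, adjusted p = 0.00992). For Plxna4 and Sema3d the control libraries differed by more than 2-fold between the sets, and the change within each set was similar. Efnb2, an ephrin of arteries and neurons, rose from 16.9 and 59.1 to 53.1 and 181 CPM (log2 fold change 1.63 ± 0.23, adjusted p = 0.0101). Leaving out the control library of set 20 left the list with 3 higher calls, without that of set 28 it had 7, and without the block it had 2. Without the DS3201 library of set 20 it had 13 higher and 12 lower, and in DESeq2 13 and 4.

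Wnt pathway genes had 10 of 45 tested members higher and 0 lower, with ligands, receptors, antagonists and feedback targets among them. The ligands Wnt2b, Wnt5b, Wnt6 and Wnt10a rose, all from under 2 CPM. The ligand Wnt10a, for example, was at 0.57 and 0.0671 CPM in the control against 8.10 and 0.53 CPM with DS3201, so the set 28 library with inhibitor did not exceed the set 20 control. Fzd3, a Wnt receptor of the planar cell polarity branch, went from 0.808 and 6.85 to 26.9 and 47.2 CPM (log2 fold change 3.69 ± 0.69, adjusted p = 0.0248), and the co-receptor gene Ror1 rose from 0 counts and reached 2.21 and 1.68 CPM (at least 24-fold higher, adjusted p = 0.0106). Axin2, a feedback inhibitor that is a common readout of beta-catenin signalling, went from 0.285 and 0.134 to 10.4 and 1.5 CPM (log2 fold change 4.62 ± 0.59, adjusted p = 0.0073). Nkd2, another feedback inhibitor, rose too, as did Wif1, a secreted Wnt antagonist, and Rspo3, a secreted enhancer. In the fit without the control library of set 20, the list had 0 calls, without that of set 28 it had 3, without the DS3201 library of set 20 it had 6, and without the block it had 0.

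The BMP and TGF-beta list had 4 of 43 higher, of which 3 encode extracellular BMP antagonists (Nog, Chrd and Chrdl1) and 1 a ligand, Bmp5, with 1.47 and 1.41 CPM from 0 counts (at least 17.4-fold higher, adjusted p = 0.0191). The Hedgehog and Notch list had 3 of 22 higher: Gli1 and Hhip, both targets of Hedgehog signalling, and the Notch ligand gene Dll1. The retinoid list had 3 of 20 higher and 1 lower. Rdh10, which makes retinal, and Cyp26b1, which degrades retinoic acid, rose, and Dhrs3, which turns retinal back into retinol, fell from 12.6 and 15.2 to 5.32 and 7.24 CPM. Without the control library of set 20, none of these 3 lists had a call.

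Growth factor and receptor tyrosine kinase genes had 9 of 61 higher and 2 lower. Tgfa, an EGF receptor ligand, went from 2 control counts to 10.0 and 6.01 CPM, 152 times the control level (interval 41.6 to 1262, adjusted p = 0.00145), and a second ligand of that receptor, Areg, also rose. Ret, the receptor of GDNF family ligands, went from 0.38 CPM and 0 to 12.3 and 4.77 CPM (log2 fold change 5.50 ± 0.82, adjusted p = 0.0121). The 2 PDGF receptor genes moved in opposite directions. Pdgfra (chr5:75151322-75198206) rose from 0.19 and 1.95 to 8.95 and 21.9 CPM (log2 fold change 4.15 ± 0.64, adjusted p = 0.0138), while Pdgfrb fell from 153 and 180 to 67.8 and 49.5 CPM (log2 fold change -1.50 ± 0.21, adjusted p = 0.0106). Pdgfrb stayed the more abundant of the pair in counts, which are not scaled to length. Axl, the second member that fell, encodes a receptor for GAS6. Without the control library of set 20 the list had 3 higher and 0 lower calls.

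Ion channel genes had 9 of 49 tested members higher and 0 lower, and the other 40 did not pass. Among the 22 members under 1 CPM in the control 8 were higher, a share near that of all tested genes at that level, 745 of 2266. Of the 9, 5 encode calcium channel subunits. Cacna1c, the pore of an L-type calcium channel, went from 0.903 and 0.336 to 8.55 and 7.68 CPM (log2 fold change 3.65 ± 0.48, adjusted p = 0.00807). Cacna1g, the pore of a T-type channel, went from 3 control counts to 19 and 1.59 CPM, 146 times the control level (interval 49.7 to 713, adjusted p = 0.00944). The calcium channel genes Cacna1e, Cacna2d3 and Cacnb4 and the potassium channel genes Kcnma1, Kcng1 and Kcnh1 were also among them. Of 24 regulators of G-protein signalling and G-protein subunits, 5 rose and 19 did not pass. Rgs9, known from striatal neurons and photoreceptors, went from 1.05 and 0.336 to 8.83 and 13 CPM (log2 fold change 3.91 ± 0.51, adjusted p = 0.00771). Leaving out the control library of set 20 left the channel list with 1 call and the G-protein list 2, and without the DS3201 library of set 28 they had 4 and 2.

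Cadherins and protocadherins had 7 of 27 tested members higher and 0 lower, with all 7 among the 12 under 1 CPM in the control. Pcdh7 went from 1 control count to 15.1 and 12.1 CPM, 499.8 times the control level (interval 89.2 to 19791, adjusted p = 0.00112), and Pcdh9 from 1 count to 12 and 25.8 CPM (625 times, interval 112 to 24739, adjusted p = 0.0012). Cdh11, a cadherin of mesenchymal cells and osteoblasts, went from 0.76 and 0.671 to 40.5 and 14.5 CPM (log2 fold change 5.17 ± 0.49, adjusted p = 0.00256). Celsr1, Celsr2, Dchs1 and Fat3, all large cadherins of planar cell polarity, made up the remainder. Of 27 immunoglobulin-type adhesion genes 4 rose, among them Chl1, a relative of the neural adhesion gene L1cam, from 0.095 and 0.268 to 1.59 and 8.04 CPM. This adhesion list had 0 calls without the block and 4 in DESeq2. Of 21 integrin genes 2 rose, Itga1 and Itga9, and Itgam fell. In the fit without the control library of set 20 or of set 28, the cadherin list had 3 calls.

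Of 40 tested collagen genes, 5 were higher and 4 lower. The 4 that fell were abundant: the basement membrane pair Col4a1 and Col4a2, Col6a3, from 649 and 323 to 363 and 106 CPM (log2 fold change -1.23 ± 0.21, adjusted p = 0.02), and Col7a1, from 81.1 and 38 to 39.2 and 13.5 CPM. The 5 that rose were low: Col22a1, from 7.89 and 1.74 to 41.1 and 7.68 CPM (log2 fold change 2.27 ± 0.30, adjusted p = 0.00845), Col6a4, Col2a1, Col25a1 and Col8a2. Among 39 proteoglycan, fibulin and elastic fibre genes 6 rose and 0 fell. Fbln1 went from 0.38 and 0.604 to 27.1 and 24.6 CPM (log2 fold change 5.74 ± 0.41, adjusted p = 0.000834), and Hmcn1, the gene for hemicentin, from 0.38 and 0.537 to 29.7 and 15.8 CPM. Dcn, which encodes the collagen-binding decorin, went from 0 and 0.268 to 7.14 and 6.71 CPM (log2 fold change 5.86 ± 0.95, adjusted p = 0.0161).

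Matrix proteases and inhibitors had 5 of 48 higher and 3 lower. Adam23, a neuronal ADAM protein without protease activity, had 4.13 and 9.63 CPM from 0 counts (at least 75.2-fold higher, adjusted p = 0.00622). Mmp17, a membrane-type metalloprotease gene, went from 0.665 and 0.134 to 11.2 and 3.53 CPM (log2 fold change 4.15 ± 0.47, adjusted p = 0.00485). The abundant Mmp14 and Adamts1 fell, and Adamts14, which trims procollagens, fell from 43.1 and 17.7 to 14.3 and 3.97 CPM (log2 fold change -1.81 ± 0.26, adjusted p = 0.0107). Without the control library of set 20 the collagen list had 0 higher and 1 lower calls, the proteoglycan list 2 higher, and the protease list 1 higher and 0 lower. Collagen genes had 8 higher and 14 lower calls in DESeq2, 2 higher and 15 lower without the DS3201 library of set 20, and 0 of either without the block.

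Amino acid and cation transporters had 7 of 34 higher and 0 lower. Slc7a2, a carrier of arginine and lysine, had 5.04 and 7.77 CPM from 0 counts (at least 73.2-fold higher, adjusted p = 0.00519), and Slc7a8, a carrier of neutral amino acids, had 6.34 and 1.41 CPM from 0 (at least 52.9-fold higher, adjusted p = 0.00623). The copper-dependent ferroxidases Heph and Cp, which oxidise iron on its way out of cells, both rose. Cp went from 10.8 and 4.09 to 72.7 and 49.9 CPM (log2 fold change 3.15 ± 0.25, adjusted p = 0.00134). Of 39 glutathione and NRF2 genes 3 rose and 0 fell, with 5 higher and 8 lower at an unadjusted p under 0.05 and a median log2 fold change of -0.18. DESeq2 called 5 of them higher and 5 lower, and without the DS3201 library of set 20 8 were higher and 10 lower. The extracellular superoxide dismutase gene Sod3 went from 2 control counts to 36.5 and 14.6 CPM, 502 times the control level (interval 138 to 4150, adjusted p = 0.000648), and Mgst1, a membrane glutathione transferase gene, from 1.81 and 2.95 to 30.2 and 24.6 CPM. Lipid genes had 5 of 36 higher and 2 lower, with the fatty acid binding protein gene Fabp7 raised from 0.285 and 0.47 to 13 and 7.51 CPM and the lipid droplet gene Plin4 lowered from 50.1 and 44.5 to 12.3 and 23.5 CPM (log2 fold change -1.47 ± 0.32, adjusted p = 0.0383). Leaving out the control library of set 20 or of set 28 left the transporter list with 3 and 4 calls, and the lipid list 0 and 1 higher, and without the DS3201 library of set 20 the lipid list had 6 higher and 10 lower.

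Immune genes rose in the complement and MHC class II lists, and the interferon list had no call. Of 43 tested chemokine, cytokine and complement genes 10 were higher and 2 lower. C3, the central complement component, went from 9.55 and 0.403 to 217 and 19.7 CPM (log2 fold change 4.77 ± 0.30, adjusted p = 0.000648), and both inhibited libraries lay above both control libraries, although set 20 was far above set 28 in each group. C4b went from 0.333 and 0.94 to 11 and 11.4 CPM (log2 fold change 4.31 ± 0.68, adjusted p = 0.0146). Serping1, an inhibitor of the first complement step, reached 27.9 CPM in set 20 and 0.442 CPM in set 28 from 0.523 CPM and 0, so its groups overlap. Il33, an alarmin of stromal cells, went from 2 control counts to 6.91 and 3.71 CPM, 102 times the control level (interval 27.7 to 847, adjusted p = 0.00161). Cxcl12, a chemokine of stromal cells, fell from 93 and 682 to 54.6 and 342 CPM (log2 fold change -0.88 ± 0.16, adjusted p = 0.0213), and the gene for its receptor, Cxcr4, rose from 0 counts to 0.51 and 1.32 CPM. In the fit without the control library of set 20 or of set 28, the list had 2 and 4 higher calls and 0 lower.

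Of the 6 tested MHC class II genes 3 rose, the neighbours H2-Ab1, H2-Aa and H2-Eb1 on chromosome 17. H2-Ab1 had 1.70 and 1.06 CPM from 0 counts (at least 17.4-fold higher, adjusted p = 0.0208). Of 23 class I and antigen processing genes 2 rose, H2-Q7 and H2-M2, and the list's median log2 fold change was 0.20 within set 20 and -0.78 within set 28. Without the DS3201 library of set 20 this list had 3 higher and 14 lower calls, and without the block 0. None of 42 interferon-stimulated genes passed in edgeR, with 1 higher and 6 lower at an unadjusted p under 0.05, and DESeq2 called 3 lower. The median log2 fold change of the interferon list was -0.09 within set 20 and -1.57 within set 28. Without the DS3201 library of set 20 14 of its members were called lower, and without that of set 28 1 was.

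Cell cycle genes were mostly not called. Of 47 tested replication and mitosis genes 1 rose, Ccnd2, the gene for cyclin D2 (chr6:127125162-127152188), from 0.38 and 3.09 to 47 and 150.5 CPM (log2 fold change 6.07 ± 0.52, adjusted p = 0.00169). Without the DS3201 library of set 20, 19 of the list were called higher and 6 lower. Of 33 p53 targets and inhibitors of cyclin-dependent kinases 4 rose. Pmaip1, which encodes the cell death protein NOXA, went from 9.98 and 27.6 to 50.2 and 157 CPM (log2 fold change 2.43 ± 0.20, adjusted p = 0.00139), with Cdkn1a, Trp53inp1 and Perp beside it. Cdkn2a, a well-known Polycomb target that encodes p16 and p19ARF, was lower in each set without passing, at 338 and 167 CPM in the control against 248 and 82.6 CPM with DS3201 (log2 fold change -0.70 ± 0.24, adjusted p = 0.13). Without the control library of set 20 or of set 28 the p53 list had 2 calls, and without the DS3201 library of set 28 it had 1.

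Genes of the 2-cell embryo had the highest share of any list, with 22 of 26 tested members higher and 0 lower. Of 39 listed genes 33 were counted, and 26 passed the filter on low counts. Of the 22, 18 were among the 20 tested members under 1 CPM in the control. Such members passed the filter only where another group had enough counts, and they had little room to be lower. The median log2 fold change was 6.56, or 5.73 with genes at 0 control counts at their bound. Zscan4b, of a family of zinc-finger genes active at that stage, went from 0.333 and 0.134 to 36.7 and 37.4 CPM (log2 fold change 7.26 ± 0.39, adjusted p = 0.000562), and the deubiquitinase gene Usp17ld from 2 control counts to 16.9 and 15.2 CPM, 292 times the control level (interval 80.4 to 2419, adjusted p = 0.000446). Zfp352, a gene outside these families, had 3.68 and 12.4 CPM from 0 counts (at least 84.8-fold higher, adjusted p = 0.00452). The Zscan4, Usp17l, Tcstv and Pramef members are near-identical copies. How reads with several alignments were counted is not given, so the split among copies is uncertain. Across the 8 fits that leave out 1 library the list had 18 to 22 calls, and without the block it had 13.

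Of 18 tested germline and meiosis genes 4 rose and 0 fell. In the fits without the control library of set 20 or of set 28 and without the DS3201 library of set 28 this list had 0, 1 and 1 calls, and without the block 0. Of 44 imprinted genes, 7 rose and 0 fell. Peg3, a paternally expressed zinc-finger gene, went from 0.0475 and 0.336 to 39.5 and 89.3 CPM (log2 fold change 8.43 ± 0.58, adjusted p = 0.000804). Its neighbours Peg3os and Usp29 also rose from 0 counts, and since the strand of counting is not given, reads of overlapping transcripts there cannot be told apart. Leaving out the control library of set 20 or of set 28 left the imprinted list with 3 and 4 calls, without the DS3201 library of set 20 it had 13, and without that of set 28 it had 4.

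Several markers of other cell types were higher with DS3201. The summed level of the neuron list was 244 and 301 CPM in the control against 364 and 457 CPM with DS3201, with 4 of 17 tested members higher, while 7 and 9 of its 30 genes had 0 counts with the inhibitor against 13 and 14 in the control. The neuron list's median log2 fold change was 1.30, with 13 of the 17 positive and 0 negative in both sets. At an unadjusted p under 0.05 in edgeR, 10 were higher and 0 lower. Over all 14393 genes tested, 4782 were positive and 4156 negative in both sets, and 2370 were higher and 1115 lower at that p. The 4 called were Mapt, Dcx, Uchl1 and Elavl4. Mapt, the gene for tau, went from 0.143 and 0.0671 to 5.78 and 2.47 CPM (log2 fold change 5.16 ± 0.50, adjusted p = 0.00266). The summed levels of the muscle list were 52.9 and 33.1 CPM in the control against 58.9 and 82.3 CPM with the inhibitor, with 4 of 20 tested members higher, and those of the endothelial list 120 and 69.7 against 190 and 124 CPM, with 2 of 12. The median of the muscle list was 1.63, with 14 of the 20 positive and 1 negative in both sets. At an unadjusted p under 0.05 in edgeR 8 were higher and 1 lower, and Myh3, Myh6, Ttn and Myl1 were called. These 4 were among 14 tested members under 1 CPM in the control. The 2 endothelial calls were among 7 such members, the 2 epithelial calls among 8 and the 4 neuron calls among 8. Of all tested genes at that level, 745 of 2266 were higher. The number of markers at 0 counts went from 17 and 16 to 10 and 10 of 35 muscle genes and from 11 and 11 to 5 and 6 of 22 endothelial genes. Fewer genes at 0 was not particular to the marker lists. Over all 24062 genes counted, those with at least 1 count went from 15922 and 15657 in the control to 18298 and 17323 with DS3201. Among markers at 0 or near it in all 4 libraries were the muscle regulators Myod1 and Myog, with 0 counts, and the neuronal Rbfox3, with at most 1 count in each, while Myh3, Ttn, Mapt and Dcx rose. The blood and macrophage list stayed between 10.6 and 22.2 CPM in all 4 libraries, with 2 of 8 tested members higher and 1 lower. In that list Ptprc, the pan-leukocyte CD45 gene, was at 0.855 and 2.48 CPM in the control against 1.64 and 5.03 CPM with the inhibitor and did not pass. Glia markers had 3 of 10 higher, epithelial markers 2 of 16, cartilage and bone markers 2 of 15, and adipocyte markers 1 of 10 higher and 1 lower. Without the block the muscle, glia, epithelial, cartilage and bone, and adipocyte lists had 0 calls. The neuron list then had 2 and the endothelial and the blood and macrophage lists 1 each. The part of other cell types in the raised genes was not tested.

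Most fibroblast markers were detected, with 3 and 2 of 20 at 0 counts in the control libraries and 1 and 1 with DS3201. The fibroblast list summed to 25510 and 25300 CPM in the control against to 19080 and 16550 CPM with DS3201, lower in both sets. Col1a1, the main collagen gene of fibroblasts, was at 6153 and 5547 CPM against 4443 and 3052 CPM and did not pass. Of the list's 16 tested members Pdgfra and Dcn rose, both from the low control levels given above, and Pdgfrb fell. The median log2 fold change was -0.35, with 2 higher and 8 lower at an unadjusted p under 0.05 in edgeR. DESeq2 called 2 higher and 7 lower. Contractile genes had 4 of 34 tested members lower and 0 higher and a median of -0.30. Cnn2, the calponin gene of the promoter shown above, fell from 439.6 and 283 to 212 and 110.1 CPM (log2 fold change -1.20 ± 0.15, adjusted p = 0.00722), and Fhl2, a LIM-domain target of serum response factor, fell from 92.9 and 94.8 to 50.8 and 51.7 CPM (log2 fold change -0.87 ± 0.16, adjusted p = 0.0223). Acta2 and Mylk were the other 2. Of 26 YAP and TEAD targets 2 fell, Axl and F3, and 0 rose, with 2 higher at an unadjusted p under 0.05. Of the contractile members 1 was called without the control library of set 20, 0 without that of set 28 and 0 without the block, while without the DS3201 library of set 20 10 were lower and 4 higher.

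Some lowered genes of smallest p stand in no list. Arhgap31, a GTPase-activating protein for RAC and CDC42, fell from 137 and 101 to 63.3 and 52.7 CPM (log2 fold change -1.02 ± 0.14, adjusted p = 0.00952). Renbp, the renin-binding epimerase gene, fell from 91.1 and 78.6 to 45.2 and 39.7 CPM (log2 fold change -1.0 ± 0.14, adjusted p = 0.00977). For Xdh, xanthine dehydrogenase, and Cbr2, a carbonyl reductase, the sets lay far apart: Xdh fell from 122 and 21.4 to 61.4 and 9.36 CPM, and Cbr2 from 72.8 and 3.36 to 26.5 and 0.972 CPM. The control library of set 28 was therefore below the inhibited library of set 20 in both.

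Among the 12 genes of lowest fold change, Aoc3, an amine oxidase of smooth muscle and fat, fell from 15.8 and 0.604 to 1.47 and 0.0883 CPM (log2 fold change -3.14 ± 0.69, adjusted p = 0.0417), and Bglap3, an osteocalcin-related gene, from 7.46 and 2.35 to 1.42 and 0.265 CPM (log2 fold change -2.61 ± 0.40, adjusted p = 0.0139). Cldn15, a claudin, fell from 7.94 and 10.5 to 1.59 and 1.59 CPM (log2 fold change -2.49 ± 0.56, adjusted p = 0.0447). The integrin gene Itgam, the chemokine gene Ccl9 and the lipin gene Lpin3 were also among these 12, with Evi2a, Krtcap3, Phf11d, Adamts14, Fosb and Rnf223. None of the 108 lowered genes was called in all 8 leave-out fits.

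On the X chromosome 76 of 526 tested genes were higher (14.4%), against 901 of 13796 on the autosomes (6.53%). Among genes under 1 CPM in the control, the shares were 64 of 126 on the X chromosome (50.8%) and 677 of 2123 on the autosomes (31.9%). Single autosomes ranged in this class from 23.9% (chromosome 18) to 46.3% (chromosome 4). In 37 places at least 3 neighbouring tested genes were all higher, and these held 137 genes (14% of the raised genes with a position). Genes that were not tested may lie between them, and the widest run spans 8514.4 kb. Several runs are families of similar copies, among which the split of reads is uncertain, and some of these lie on the X chromosome, such as Magea8, Magea2 and Magea5. The number of runs to expect without any clustering was not computed. The longest run was 11 genes at chr4:143511343-144408467, the Pramef cluster with predicted relatives. Other runs were the 6 Zscan4 genes at chr7:10794241-11402318, the carboxylesterase genes Ces2e, Ces2f and Ces2g at chr8:104926260-104969537, and Robo1, Robo2 and Rbm11 at chr16:72027518-75602825. A run of 6 genes at chr10:101681487-104179491 holds Nts and the amino acid transporter gene Slc6a15. In the carboxylesterase run, named after its values were seen, Ces2e went from 2.00 and 2.35 to 37.9 and 27.9 CPM and Ces2g from 0.855 and 0.336 to 22.7 and 9.36 CPM.

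The same inhibitor in the 4 libraries with the Ring1a shRNA gave changes in the same direction. There 913 genes were higher (6.34%) and 126 lower (0.875%), and 756 genes were higher in both comparisons, which is 77.0% of the 982 and 82.8% of the 913. Of the lowered genes 47 were shared, 43.5% of the 108 and 37.3% of the 126. The direction was the same for 981 of the 982 and for all 108, against 10669 of all 14393 genes tested. Of the 982, 745 were under 1 CPM in the control, a level at which a gene has little room to be lower. For these genes the shared direction is in part set by the low level and the filter, and the share over all genes of that level was not computed. The 2 comparisons use different libraries but share the cell line, the sets and the estimate of spread. Their difference, tested as an interaction, passed for 0 of 14393 genes in edgeR and for 0 in DESeq2, with 132 at an unadjusted p under 0.05. Without the DS3201 library of set 20 the interaction called 1902 genes. A p that misses the threshold does not show that the effects were equal.

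Levels without inhibitor differed for some raised genes. Ogfrl1 had 0 counts in the control but 0.65 and 1.14 CPM with the Ring1a shRNA alone, and with DS3201 reached at least 10.9 CPM in the former and 14.8 and 17.8 CPM in the latter. It had one of the smallest interaction p values of negative sign and did not pass. Robo1 reached 24.8 and 107 CPM in control shRNA cells and 24.8 and 82.3 CPM in Ring1a shRNA cells, and Nts 138 and 0.972 CPM against 148 and 1.92 CPM, so the difference between the sets was of the same kind in both.

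**Figure D5:**
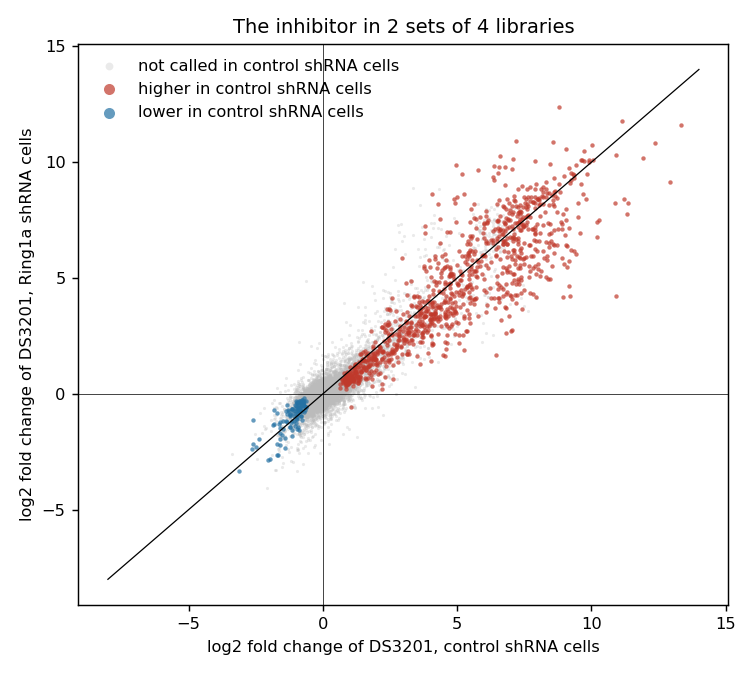
Log2 fold change of DS3201 in control shRNA cells (x axis) and in Ring1a shRNA cells (y axis) for each tested gene, with genes called higher (red) or lower (blue) in control shRNA cells and a line of equal change. Of the red points 981 of 982 and of the blue points all 108 have the same sign on both axes, against 10669 of all 14393 genes. Red points include 745 genes under 1 CPM in the control, which had little room to be lower. Values of genes with 0 counts in an untreated group depend on the prior of the fit.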

How the data were processed

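RNA was measured in 8 libraries of 6KO immortalised mouse embryonic fibroblasts. The deposited values are raw counts per gene and per repeat subfamily, made by the authors with Trim Galore, TopHat2 and mm10, per the submitters' processing notes. The counter, annotation, strand and treatment of reads with several alignments are in none of the sources used here. Columns were placed in groups by their names, and 8 other columns matched no label and were not used. The table held 25215 entries, 24062 genes and 1153 repeat subfamilies, of which 14393 and 894 passed edgeR's filter on low counts. Genes were tested with edgeR 4.0.16 (R 4.3.3, limma 3.58.1) by the robust quasi-likelihood F test after TMM scaling, with group and set as terms over all 8 libraries, which leaves 3 residual degrees of freedom, and Benjamini-Hochberg adjustment over all entries tested. The set, which is the leading number of the column, was used as a block. The labels give the replicates of each group a batch each, but no label ties these batches to the numbers 20 and 28, so that the set is the batch is an assumption. Deviations from group means correlated between groups with r from 0.563 to 0.902 over 14393 genes, a value that with 2 libraries a group compares the sets. The lowest r was between control and DS3201, the groups compared here. The highest was between control and Ring1a shRNA, both without inhibitor.

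A standard error (SE) is the log2 fold change divided by the root of F. Genes with 0 control counts have a lower bound, with 3 counts over the group as the floor, and those with 1 to 3 counts a ratio with an exact 95% interval. Floors and intervals cover counting error only. Fitting was tested on simulated data with 200 changed genes, of which 33% of the 2-fold and 84% of the 4-fold changes were recovered. Of its 124 calls 7 were unchanged entries. A gene that did not pass may therefore have changed by 2-fold. Alternatives were DESeq2 1.42.0, other scaling, no filter, gene entries alone, the 4 libraries alone, no block, and leaving out each library. The genes named are Polycomb and knockout genes, the 12 highest and lowest by fold, those with the smallest p in each direction, and members of lists. Some list members are not reported here. The comparison and all lists were chosen with earlier results of these data known. Gene positions and promoters are from RefSeq for GRCm38.p6.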

Additional observations from a re-analysis of the deposited data

Results flagged for a closer look

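Repeat subfamilies lie outside the gene comparison but were counted in the same libraries. Of 894 subfamilies tested, 30 were higher with DS3201 in control shRNA cells and 0 lower by edgeR's test with the set as block. Repeats took 10.4% of counts in the DS3201 library of set 20 and 14.6% in that of set 28, against 8.65% and 9.72% in the controls. In Ring1a shRNA cells repeats took 10.8% and 13% of counts with DS3201, against 8.59% and 9.92% without. With the inhibitor the larger share was in the library of set 28 in both kinds of cell. The part of single libraries in the difference was not tested.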

How the results depend on the processing

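The number of calls depended on the fit more than the direction did. No replicate block gave 109 higher and 0 lower genes in control shRNA cells, and 92 and 0 in Ring1a shRNA cells. Lower genes numbered 192 with the 4 libraries alone, 414 with DESeq2, 69 with library sizes alone and 214 with no filter on low counts, and 314 with DESeq2 in Ring1a shRNA cells. Over the 8 fits that left out 1 library, higher genes ranged from 167 to 2748 and lower genes from 3 to 2670 in control shRNA cells. In Ring1a shRNA cells they ranged from 115 to 1207 and from 2 to 841, and the difference of the effects from 0 to 1902 genes, with 1902 without the DS3201 library of set 20 and 0 in the other 7. In that fit Cbx8 reversed, to a log2 fold change of -1.25 from 0.05, and over all leave-out fits it ranged from -1.25 to 0.79. The cause was not tested. Higher genes in control shRNA cells numbered 798 to 1248 in the other 7 alternatives with the block that left out no replicate. Of 209 named genes, 76 kept their side of the threshold without the block, 203 with DESeq2, and 89 to 197 over the leave-out fits. With 2 libraries a group and 3 counts equal to 0.143 to 0.265 CPM, the level of silent genes in the control is known only as an upper limit.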

Other observations

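The lowered genes named here stand in no list, were chosen after their values were seen, and are given as single genes with no test of a group. Phgdh, the first enzyme of serine synthesis, fell from 203 and 213 to 128 and 88.1 CPM (log2 fold change -0.95 ± 0.21, adjusted p = 0.0431 from edgeR), and Shmt2, which turns serine into glycine in mitochondria, from 207 and 178 to 148 and 79.5 CPM. The lysosomal hydrolase genes Hexa, Manba and Dpp7 and the lysosomal chloride transporter gene Clcn7 were lower as well, with log2 fold changes of -0.75, -0.91, -0.97 and -1.16. The sphingosine 1-phosphate receptor genes S1pr1, from 80.8 and 56.0 to 42.9 and 19.5 CPM (log2 fold change -1.21 ± 0.21, adjusted p = 0.0193 from edgeR), and S1pr3, from 21.2 and 19.3 to 11.7 and 9.19 CPM, both fell. All are lower in both sets, and no lowered gene kept its call in every fit that left out 1 library.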
